A study of Mus musculus with 23 samples.

Results

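RNA-seq of brain tissue was compared between mice carrying Csf1R-G793A on PLX5622 chow (4 libraries) and wild-type (WT) mice on control chow (3 libraries). The comparison asked how near each transcript of the mutant mice stood to the untreated wild-type level while the inhibitor was given. Its 7 libraries were taken by their genotype and diet labels from the 23 of the series. G793A is a substitution in the receptor CSF1R. The PLX5622 chow held 1200 mg/kg, each diet was eaten for 14 days, and mice of both genotypes were on the C57BL/6J background. Values are set beside 2 other groups on the same schedule. G793A mice on control chow (4 libraries) carry the allele without the drug, and WT mice on PLX5622 (4 libraries) received the drug without the allele. G793A mice on chow with PLX3397 at 290 mg/kg (4 libraries) are set alongside only at the end of these results. WT mice on PLX3397 at that dose (4 libraries) enter only through the model fitted to all 23 libraries. Age, sex, brain region and zygosity are not given in the labels used here. Nor do these say whether each library came from its own mouse, so every p-value below measures the spread between these samples only.

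CSF1R is a receptor tyrosine kinase of the macrophage lineage. In the brain its ligands CSF1 and IL-34 sustain microglia, the parenchymal macrophages, and the border macrophages of meninges, vessels and choroid plexus. PLX5622 is a small molecule that enters the brain and blocks the kinase, and wild-type microglia die when the block is sustained. The series asks whether G793A prevents what the inhibitor does, and macrophage transcripts are read here as the measure of that.

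In mega-counts (M), library totals lay between 29.9 M and 40.9 M for the treated G793A group and between 33.8 M and 39.5 M for WT controls. Levels are given as counts-per-million (CPM) after scaling for library composition. The tissue label held for all 7 libraries: the synaptic gene Snap25 lay between 2569 and 3074 CPM and the astrocyte transporter gene Slc1a2 between 3466 and 5194 CPM. In 1 library, replicate 2 of G793A mice on PLX5622, transcripts of cerebellar neurons stood far above the others. Its Cbln3 level was 221 CPM, against 0.906, 1.21 and 1.13 CPM in the other 3 libraries of the group and 1.04 to 1.64 CPM in WT controls. The same library had the group's lowest Csf1r, so values without it are given beside the main macrophage results and others that it moved.

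No gene passed the test between G793A mice on PLX5622 and WT controls. Of 16209 genes tested with edgeR's quasi-likelihood test, none was called higher (0%) and none lower (0%) at a Benjamini-Hochberg adjusted p under 0.05. At an unadjusted p under 0.05 there were 1095 genes, and the smallest adjusted p was 0.118. Other tools called a few genes on the same libraries: DESeq2 called 8 (3 higher, 5 lower), limma-voom 1, and limma on the deposited variance-stabilised values 1. The same drug in WT mice gave 12 genes higher (0.074%) and 257 lower (1.59%) against the same WT controls. A test without a call does not show equal levels, so the 95% interval of each fold change was read as well. It lay within 1.5-fold of the WT control level for 12376 genes (76.4%) and within 2-fold for 14381 genes (88.7%). The median log2 fold change over all genes was 0.00052.

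Each gene was also scored, as a description, by whether the 4 treated libraries all lay on one side of the 3 WT controls. This held upward for 550 genes (3.39%) and downward for 625 genes (3.86%). Without replicate 2 of the treated group it held for 772 (4.76%) and 906 (5.59%). These percentages are the background for the counts of each gene group below.

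**Figure D1:**
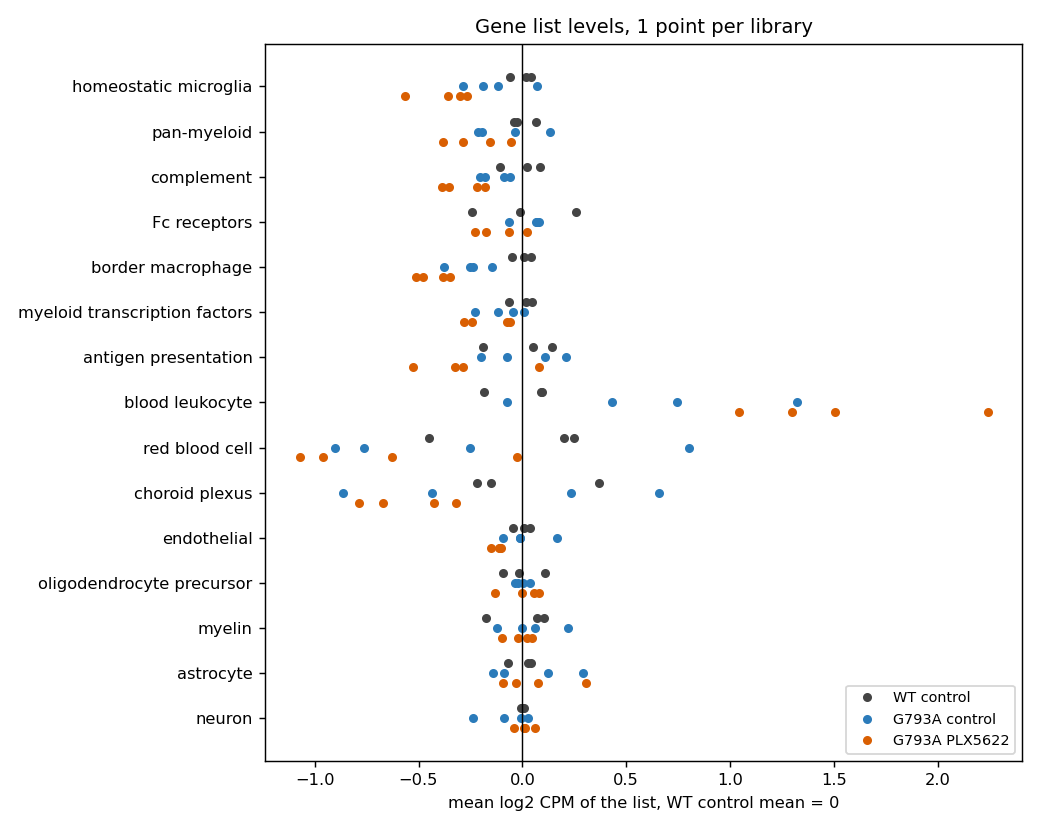
Mean log2 CPM of 15 gene lists in each library (points), with the mean of the 3 WT control libraries set to 0; G793A control and G793A PLX5622 hold 4 libraries each. The 4 G793A PLX5622 libraries lie below all WT controls for homeostatic microglia, pan-myeloid, complement, border macrophage, endothelial and choroid plexus genes. They lie above all WT controls for blood leukocyte genes, some of which passed the low-count filter through groups where they are higher.

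Csf1r, which encodes the drug's target, stood at 74.2, 58.8, 77.3 and 76.0 CPM in the 4 G793A libraries on PLX5622. WT controls had 95.1, 93.4 and 92.8 CPM, and G793A controls 78.5, 78.9, 88.4 and 79.8 CPM. Every treated G793A library thus lay below every library of both control groups. The treated mean was 76.3% of WT control (80.9% without replicate 2), and WT mice on the drug had 13.02%. The log2 fold change from WT control was −0.39 ± 0.19 (SE, 95% interval −0.79 to 0.02), which did not pass (edgeR adjusted p = 0.748). Against G793A controls it was −0.18 ± 0.18 (95% interval −0.56 to 0.19). A two-sided exact permutation test of the Csf1r level alone gave p = 0.0286 against either control group, which is the smallest value it can give. It was 1 of 3 genes tested in this way against each group, with no adjustment. In whole tissue, fewer macrophages and less of a transcript per macrophage cannot be told apart. The ligand genes lay nearer the control level: Csf1 differed by −0.07 ± 0.07 (95% interval −0.23 to 0.08) and Il34 by −0.08 ± 0.08 (95% interval −0.25 to 0.08). Without replicate 2 these were −0.05 and −0.01.

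**Figure D2:**
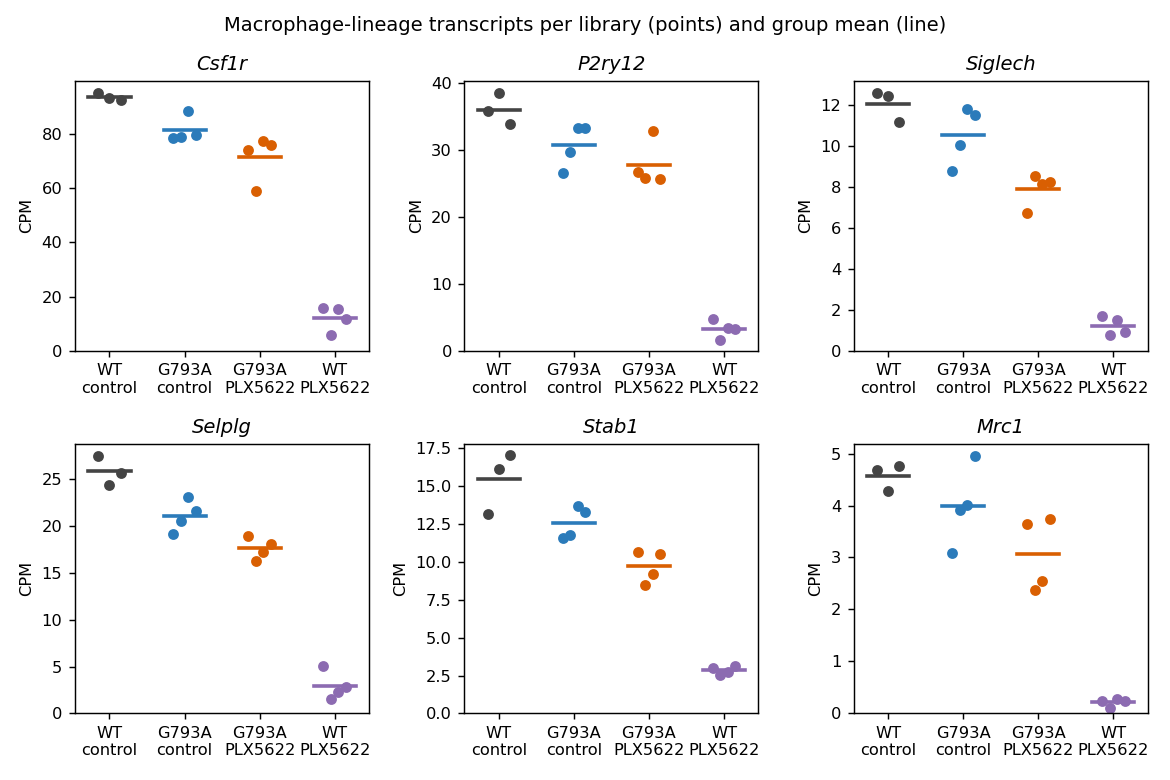
CPM of 6 macrophage-lineage genes in each library (points) with the group mean (line), for WT control (3 libraries), G793A control, G793A PLX5622 and WT PLX5622 (4 libraries each). For Siglech, G793A PLX5622 libraries reach at most 8.57 CPM and the lowest WT control has 11.2 CPM, while WT PLX5622 libraries lie at or below 1.68 CPM.

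Homeostatic microglia genes mark the surveying state of the adult cell. All 16 measured had a negative log2 fold change from WT control, with a median of −0.38 (−0.33 without replicate 2) and a range from −0.61 to −0.13. None passed the test. In 11 of the 16 the treated libraries lay wholly below WT controls, also without replicate 2. The median member stood at 76.7% of WT control, where WT mice on the drug kept 14.3%. The 95% interval lay within 2-fold of the control level for 14 of 16 but within 1.5-fold for 2 only. The interval of most of them thus also covers a shortfall of 1.5-fold. These intervals use the spread of all 23 libraries, the WT groups on an inhibitor included.

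Siglech, a sialic-acid-binding lectin of microglia, had the lowest value of the list. It stood at 12.6, 12.4 and 11.2 CPM in WT controls and at 6.73, 8.57, 8.14 and 8.25 CPM in treated G793A mice. The groups did not overlap, and the log2 fold change was −0.61 ± 0.16 (95% interval −0.95 to −0.27, edgeR adjusted p = 0.583), and −0.65 without replicate 2. Selplg, the P-selectin ligand, stood at 27.5, 24.5 and 25.7 CPM in WT controls. Treated G793A libraries had 18.9, 16.2, 17.2 and 18.1 CPM, or 68.1% of control. P2ry12, the ADP receptor of microglial processes, stood at 35.7, 38.4 and 33.8 CPM in controls and 26.7, 25.8, 32.7 and 25.7 CPM in treated G793A mice. Replicate 3 came close to the lowest control, and the mean was 77.0% of control. Fcrls, an Fc receptor-like gene, averaged 69.7% of control, Tmem119, a microglial membrane protein gene, 73.2%, and Olfml3, a secreted matrix protein gene, 73.6%. At the upper end of the list was Cst3, the cystatin C gene, at 91.3%. Cst3 is made by other brain cells too, and in WT mice on the drug it did not pass either.

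Set against G793A mice on control chow, all 16 homeostatic genes again had a negative log2 fold change, with a median of −0.24. No gene of the genome passed in that comparison either (0% higher, 0% lower), with 2639 genes at an unadjusted p under 0.05 and a smallest adjusted p of 0.147. DESeq2 called 215 genes there (118 higher, 97 lower). Without replicate 2 of the G793A controls edgeR called 980 genes (542 higher, 438 lower), so the edgeR count depended on that library. Non-overlap with G793A controls held upward for 413 genes (2.55%) and downward for 458 (2.83%). Among homeostatic genes it held downward for 6 of 16: Siglech, Tmem119, Fcrls, Olfml3, Selplg and Csf1r. Untreated G793A mice themselves had a median of −0.15 from WT control over the list. This median and the −0.38 of treated G793A mice rest on the same WT control libraries.

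Pan-myeloid genes are shared by microglia, other macrophages and blood myeloid cells. Of 16 measured, 13 had a negative fold change, the median was −0.27 (−0.22 without replicate 2), and 6 lay wholly below WT controls. None passed, and the 95% interval was within 2-fold for all 16. Cd68, a lysosomal glycoprotein gene, stood at 7.64, 8.17 and 6.81 CPM in WT controls and at 5.19, 4.92, 5.38 and 6.57 CPM in treated G793A mice. Laptm5, a lysosomal membrane protein gene of leukocytes, stood at 36.1, 37.5 and 34.0 CPM in controls and 26.5, 24.5, 27.97 and 28.6 CPM in treated G793A mice. Its treated libraries also lay below the G793A controls, at 33.6, 33.1, 34.0 and 36.2 CPM. Itgam, which encodes CD11b, averaged 76.4% of control, Aif1, which encodes IBA1, 74.6%, Ctss, a lysosomal protease gene, 77.0%, and Ly86, a Toll-like receptor partner gene, 76.2%. Ptprc, the pan-leukocyte gene for CD45, averaged 116.0%, and Csf3r, the G-CSF receptor gene, 100.7%.

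**Figure D3:**
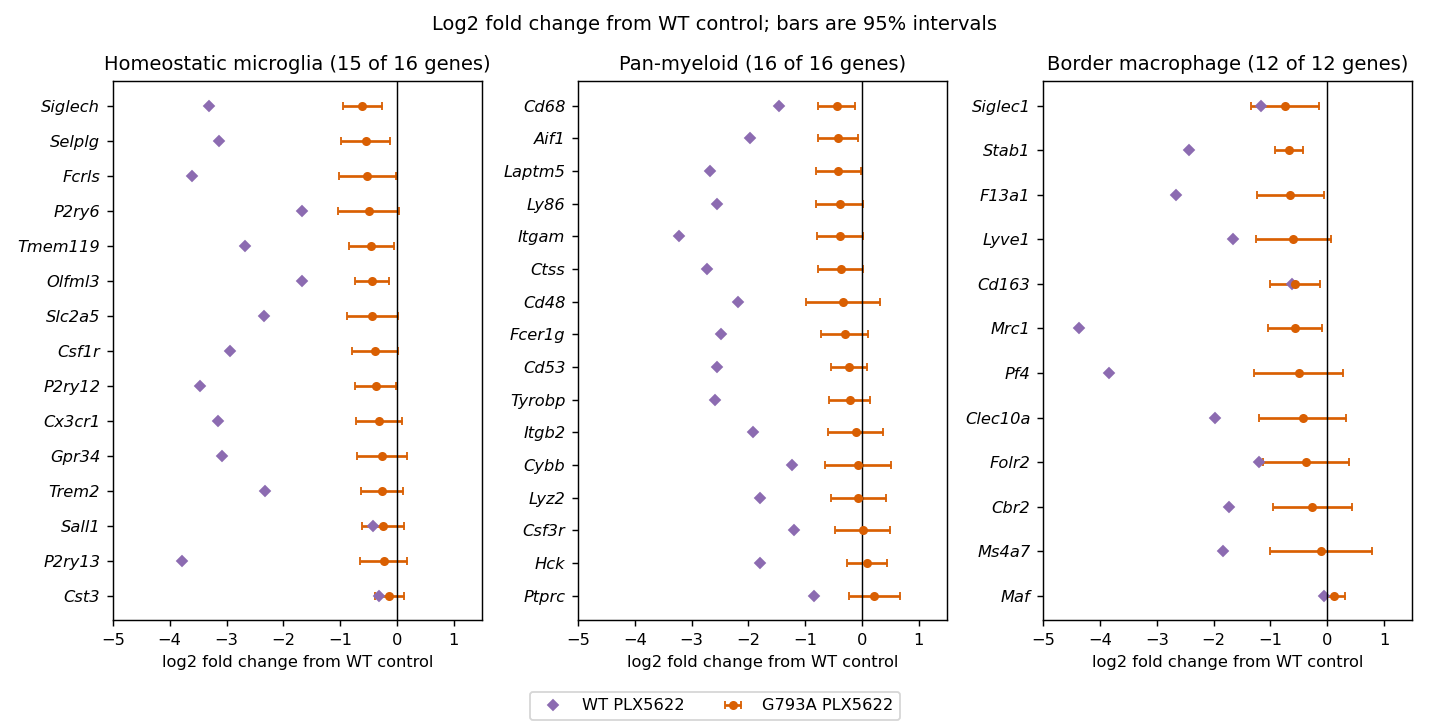
Log2 fold change from WT control in G793A PLX5622 (circles, bars are 95% intervals) and in WT PLX5622 (diamonds) for members of 3 gene lists; both share the 3 WT control libraries. In G793A PLX5622 the homeostatic members lie between −0.61 and −0.13, and Mrc1 lies at −0.56 where WT PLX5622 has −4.37.

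The 12 border macrophage genes measured had a median of −0.53 (−0.44 without replicate 2), 11 were negative, and 6 lay wholly below WT controls. Their median was −0.10 on the deposited variance-stabilised values, where the homeostatic median was −0.22 and the pan-myeloid median −0.12, so the order of the 3 lists was not the same there. None passed, and the 95% interval lay within 2-fold of control for 3 only. Stab1, a scavenger receptor gene, had the smallest p of all genes. It stood at 13.2, 16.1 and 17.1 CPM in WT controls and at 10.7, 8.44, 9.17 and 10.5 CPM in treated G793A mice. All treated libraries lay below the controls, with a log2 fold change of −0.67 ± 0.12 (95% interval −0.91 to −0.43, edgeR adjusted p = 0.118), and −0.61 without replicate 2. G793A controls stood between, at 11.6, 11.8, 13.7 and 13.3 CPM, and WT mice on PLX5622 had 3.00, 2.55, 2.71 and 3.10 CPM. Stab1 was called by limma-voom and by DESeq2, and by edgeR without replicate 1 of the WT controls.

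Mrc1, the mannose receptor gene, stood at 4.68, 4.28 and 4.75 CPM in WT controls and 3.65, 2.37, 2.55 and 3.74 CPM in treated G793A mice. F13a1, a transglutaminase subunit gene, stood at 2.88, 2.67 and 2.87 CPM in controls and 1.98, 2.01, 1.66 and 1.50 CPM in treated G793A mice. Siglec1, the sialoadhesin gene, averaged 60.1% of control at under 1 CPM, and Cd163, the haemoglobin scavenger receptor gene, 67.1%. Cd163 did not pass in WT mice on the drug either, where it differed by −0.63. Maf, a transcription factor gene with wider expression, averaged 109.3%, and its log2 fold change of 0.13 was 0.05 without replicate 2. In the score over the list, untreated G793A libraries lay at −0.25, −0.38, −0.15 and −0.24, below all WT controls, and treated ones at −0.48, −0.51, −0.38 and −0.35.

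Promoters are shown for 1 gene of each of these 3 lists, Stab1, Siglech and Laptm5. They were chosen after their values were seen, because their treated libraries lay below both control groups and their promoter held the letters searched. They are RefSeq promoters of build GRCm38.p6, each running from 250 bases before to 50 bases after the start, 5′ to 3′ on the gene's strand. Capitals mark GAGGAA or its reverse complement TTCCTC, the core of the PU-box that PU.1, the macrophage lineage factor, is known to bind.
Stab1, chr14:31168592-31168891, minus strand: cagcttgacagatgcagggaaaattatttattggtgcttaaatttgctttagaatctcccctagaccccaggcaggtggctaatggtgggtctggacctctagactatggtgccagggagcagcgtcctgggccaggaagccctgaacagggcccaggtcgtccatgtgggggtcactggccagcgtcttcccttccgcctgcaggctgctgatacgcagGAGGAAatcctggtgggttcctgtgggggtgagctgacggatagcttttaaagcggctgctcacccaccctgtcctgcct
Siglech, chr7:55767934-55768233, plus strand: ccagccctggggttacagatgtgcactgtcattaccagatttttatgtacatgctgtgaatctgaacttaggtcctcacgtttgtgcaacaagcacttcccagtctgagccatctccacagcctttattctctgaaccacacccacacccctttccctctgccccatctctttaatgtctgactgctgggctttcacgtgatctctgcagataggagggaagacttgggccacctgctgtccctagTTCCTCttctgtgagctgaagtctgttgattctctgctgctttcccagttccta
Laptm5, chr4:130913066-130913365, plus strand: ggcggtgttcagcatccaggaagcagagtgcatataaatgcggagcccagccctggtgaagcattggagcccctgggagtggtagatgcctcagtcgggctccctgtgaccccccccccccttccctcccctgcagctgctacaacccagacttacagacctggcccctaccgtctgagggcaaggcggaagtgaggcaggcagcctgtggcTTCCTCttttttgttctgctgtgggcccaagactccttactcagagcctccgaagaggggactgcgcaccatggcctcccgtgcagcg
Searched on both strands, these letters were found in 9289 of the 32851 mouse promoters used (28.3%). They were found in 9 of 14 promoters of pan-myeloid genes (64.3%), 7 of 11 of border macrophage genes (63.6%) and 5 of 12 of homeostatic genes (41.7%). They were also found in 6 of 11 of myelin genes (54.5%), 2 of 5 of complement genes (40%) and 3 of 10 of neuronal genes (30%). Promoters of a single chromosome were left out of these counts. Promoters were at hand for 13 of 16 pan-myeloid, 8 of 12 border macrophage and 10 of 16 homeostatic genes, and some genes had several. A match is a run of letters, not a measured binding site.

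The genes of the complement C1q chains, C1qa, C1qb and C1qc, lay wholly below both control groups. C1qa stood at 40.3, 33.7 and 34.5 CPM in WT controls, 31.3, 28.4, 44.2 and 32.4 CPM in G793A controls, and 25.8, 23.1, 27.5 and 26.9 CPM in treated G793A mice. Its log2 fold change from WT control was −0.49 ± 0.23 and did not pass. With the compared groups alone its edgeR p was 8.27e-05 (adjusted p = 0.112). Of the 7 complement genes 3 did not overlap with WT controls, and the list median was −0.37 (−0.33 without replicate 2). Receptors for antibody gave a median of −0.31 over 5 genes (−0.30 without replicate 2), 3 of them below WT controls without overlap: Fcgr1 at 81.0%, Fcgr2b at 71.6% and Fcgr3 at 71.3% of control.

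Myeloid transcription factors lay nearer control, with a median of −0.13 over 10 genes. Spi1, which encodes PU.1, averaged 93.3% of WT control. Irf5, an interferon regulatory factor gene, was the 1 member without overlap, at 2.76, 3.00 and 3.32 CPM in controls and 1.74, 1.76, 2.31 and 2.13 CPM in treated G793A mice. Toll-like receptors and partners had a median of −0.11 over 12 genes (−0.15 without replicate 2), with Tlr1 alone below controls without overlap. Antigen presentation genes had a median of −0.20 over 13 genes, with the immunoproteasome gene Psmb8 alone below controls. The MHC class II gene H2-Aa averaged 63.8% of control and its 95% interval ran from −1.40 to 0.10. Interferon-stimulated genes had a median of −0.13 over 17 (−0.18 without replicate 2) and disease-associated microglia genes 0.00 over 13, and none of either lay off the controls without overlap. Apoe, a lipoprotein gene of the disease-associated list, averaged 99.9%. In WT mice on the drug it ran from 1081 to 1184 CPM, against 1065 to 1183 CPM in WT controls. In WT mice on the drug the disease-associated list also stayed near control, with a median of −0.05 and 0 genes called lower. The homeostatic median there was −2.80, so in this tissue the disease-associated list did not follow the homeostatic genes.

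The difference of the drug's effect between genotypes was tested as an interaction, which uses each genotype's own controls. It passed for 130 genes with a higher value in G793A mice (0.802%) and 1 with a lower value (0.00617%). The 130 held 14 of 16 homeostatic, 14 of 16 pan-myeloid and 4 of 12 border macrophage genes, and 3 of 7 complement genes. Mrc1 differed by 4.00 on the log2 scale between genotypes, P2ry12 by 3.32 and Csf1r by 2.75 (edgeR adjusted p = 5.46e-06). Of the other lists, 5 of 10 myeloid transcription factors, 4 of 5 Fc receptor genes and 2 of 12 Toll-like receptor genes were among them.

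Receptor kinases related to CSF1R and their ligands lay close to WT control in treated G793A mice. The 9 measured had a median of −0.02, none lay off the controls without overlap, and the 95% interval was within 2-fold for all 9 and within 1.5-fold for 7. Pdgfra, the PDGF receptor gene of oligodendrocyte precursors, averaged 98.8%. Kit, the stem cell factor receptor gene, averaged 121.3% (110.7% without replicate 2).

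Cells of other lineages gave medians near 0. Oligodendrocyte precursor genes had a median of 0.02 over 12, and the 95% interval was within 1.5-fold for all 12. Committed precursor genes had −0.04 over 10, with Gpr17, a receptor gene of that stage, and Bmp4 below controls without overlap. Myelin genes had −0.07 over 12. Nkx6-2, a myelin-lineage homeobox gene, stood at 3.21, 1.66 and 1.73 CPM in WT controls and 3.67, 3.04, 3.52 and 3.88 CPM in treated G793A mice. It did not pass, and WT control replicate 1 lay among the treated values. In WT mice on the drug it was called, with a difference of 0.97 (edgeR adjusted p = 0.0175). Untreated G793A libraries had 141, 179, 124 and 92 counts of Nkx6-2, at totals of 40.5, 48.2, 30.7 and 32.3 M. WT controls had 114, 56 and 70 counts, at totals of 35.1, 33.8 and 39.5 M. Astrocyte genes had 0.05 over 12 and neuronal genes 0.04 over 10. Cholesterol synthesis genes had 0.03 over 18 and proliferation genes 0.04 over 9.

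Vascular genes had slightly negative medians, −0.12 over 12 endothelial genes and −0.12 over 7 mural genes. Flt1, Abcb1a, Kdr and Cdh5 were below WT controls without overlap, 4 of 12. Below G793A controls without overlap were 3 other members, Cldn5, Tek and Itm2a, and 0 of 12 lay below both control groups. WT mice on the drug had an endothelial median of −0.13. Kdr, the VEGF receptor gene of endothelium, stood at 18.4, 19.3 and 20.4 CPM in controls and 15.5, 15.6, 15.2 and 16.3 CPM in treated G793A mice. The difference was −0.31 ± 0.13 (95% interval −0.58 to −0.04) and did not pass. All 12 endothelial intervals lay within 1.5-fold of control.

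Blood leukocyte genes had a median of 1.55 over 10 measured of 13, and of 0.12 on the deposited variance-stabilised values. Ly6c2, S100a8, S100a9 and Plac8 lay above WT controls without overlap. With at most 6, 6, 11 and 5 counts in any WT control library, they passed the low-count filter through groups where they are higher, so this count and the median were partly fixed by the filter and support nothing. S100a8, a neutrophil calprotectin gene, stood at 0.113, 0.0891 and 0.149 CPM in controls and 2.40, 1.41, 8.90 and 1.70 CPM in treated G793A mice. These are 4, 3 and 6 counts against 98, 44, 258 and 60 counts. Its partner S100a9 stood at 0.310, 0.0891 and 0.0248 CPM in controls and 3.67, 2.62, 9.21 and 2.32 CPM in treated G793A mice. Both lay above all G793A controls as well, which reached 1.05 CPM for each gene. The same filter bears on this and on the tests of both genes, so these values are description only. Their log2 fold changes were 4.87 ± 1.22 and 4.97 ± 1.18, neither passed with edgeR (adjusted p = 0.583 and 0.522), and DESeq2 called both. WT mice on the drug had means of 1413% of control for S100a8 and 1307% for S100a9, which did not pass either. Ngp, a granule protein gene of maturing neutrophils, was at 4.35 CPM in replicate 3, the library with the highest S100a8, and at most at 0.352 CPM in the other 3. Ccr2, the monocyte chemokine receptor gene, averaged 80.3% of control, and Cd3e of T cells 85.3%. They are among the 3 of 10 members with a negative log2 fold change. Cd79a and Ms4a1 of B cells went the other way. Counts of all 4 were low: Ccr2 had 27, 15 and 22 in WT controls and 9, 20, 13 and 20 in treated G793A mice. Cd79a had 12, 9 and 12 against 13, 23, 15 and 24. Red blood cell genes had a median of −0.62 over 5, and their summed level ran from 113 to 244 CPM in treated G793A libraries and 173 to 306 CPM in WT controls. The part of residual blood in these values was not tested.

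**Figure D4:**
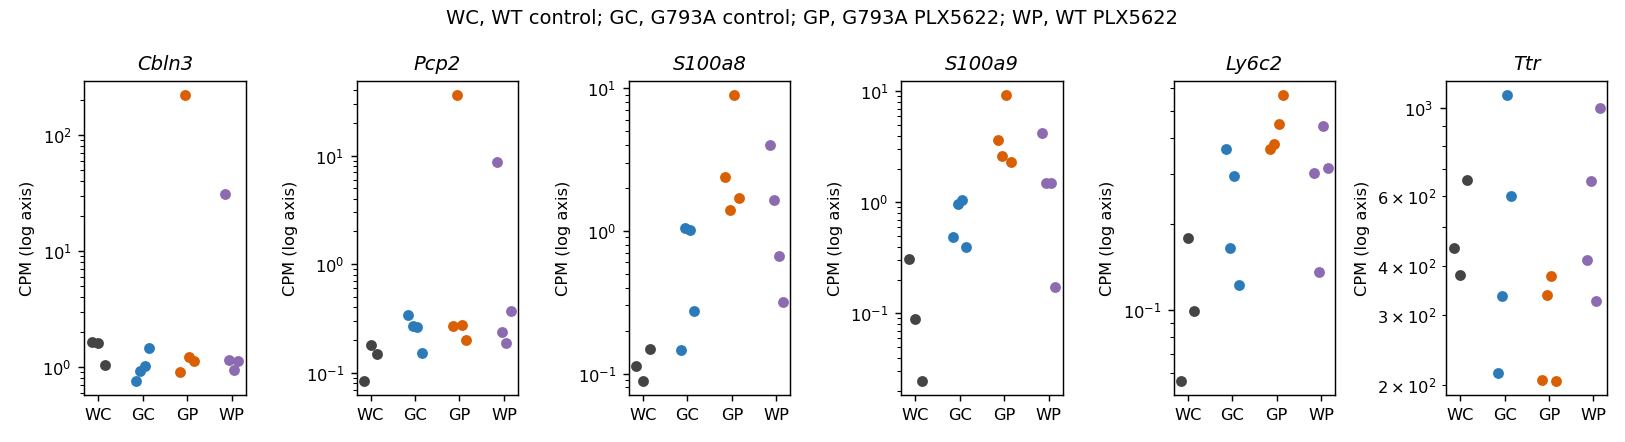
CPM on a log axis of 2 cerebellar genes (Cbln3, Pcp2), 3 blood leukocyte genes (S100a8, S100a9, Ly6c2) and the choroid plexus gene Ttr, 1 point per library in WC (3 libraries), GC, GP and WP (4 each). Cbln3 reaches 221 CPM in 1 GP library, and S100a8 is at least 1.41 CPM in GP and at most 0.149 CPM in WC. The 3 leukocyte genes passed the low-count filter through groups where they are higher.

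Choroid plexus genes were below control as a list, with a median of −0.55 over 7 (−0.58 without replicate 2 and −0.19 on the variance-stabilised values). Ttr, the transthyretin gene, stood at 444, 378 and 658 CPM in WT controls and 206, 338, 377 and 205 CPM in treated G793A mice. The highest treated value lay just under the lowest control. G793A controls ran from 214 to 1076 CPM. Folr1, a folate receptor gene, and Kl, the klotho gene, were also below WT controls without overlap. The summed level of the list ran from 246 to 430 CPM in treated G793A mice and 437 to 745 CPM in WT controls. How much plexus each dissection held was not tested for its part in these values. The 5 measured cerebellar genes had a median of 1.14, and −0.15 without replicate 2. The 4 measured pituitary genes had 0.56, and −1.93 without replicate 2.

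Activity-dependent genes had a median of 0.62 over 12 (0.33 without replicate 2), with overlap in all 12. Npas4, a neuronal activity gene, stood at 3.24, 22.9 and 10.9 CPM in WT controls and at 14.0, 139, 14.4 and 16.7 CPM in treated G793A mice. Replicate 2 alone lay above the controls. Clock genes had a median of −0.01 over 12, and glucocorticoid-induced genes 0.15 over 10, with Tsc22d3 alone above controls without overlap. Among the 12 clock genes, Per2 and Per3 lay below controls without overlap. Usp2, a clock output gene, lay above them without overlap and averaged 118.6% of control.

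The 10 genes with the smallest p were Stab1, Fam76b, Ipmk, Nfam1, Scamp2, Prr16, Niban2, Per2, Serpinh1 and Pld4. For several of them untreated G793A mice were already off the WT control mean. Fam76b stood at 4.65, 5.70 and 5.30 CPM in WT controls, 7.74, 7.45, 11.3 and 8.67 CPM in treated G793A mice and 9.84, 7.73, 8.50 and 7.36 CPM in G793A controls. It differed from WT control by 0.75 ± 0.15 (95% interval 0.44 to 1.05) and from G793A control by 0.07 ± 0.13 (95% interval −0.21 to 0.34). WT mice on PLX5622 had 7.71, 9.73, 8.37 and 8.60 CPM, so the 3 WT control libraries were below all 12 libraries of these groups. Per2, a core clock repressor gene, averaged 69.2% of WT control in treated G793A mice, 75.0% in G793A controls and 72.0% in WT mice on the drug. Ipmk, an inositol phosphate kinase gene, averaged 84.5%, 87.7% and 91.2% in the same order.

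Serpinh1 and Pld4 also lay wholly below G793A controls. Serpinh1, the collagen chaperone HSP47 gene, stood at 22.4, 19.9 and 25.2 CPM in WT controls and 19.0, 15.7, 16.8 and 16.8 CPM in treated G793A mice. G793A controls had 21.1, 21.8, 23.9 and 22.2 CPM, and the difference from them was −0.38 ± 0.09 (95% interval −0.56 to −0.20, edgeR adjusted p = 0.147). Nfam1, an immune signalling receptor gene, averaged 55.2% of WT control in treated G793A mice, 65.4% in G793A controls and 25.8% in WT mice on the drug, and its treated libraries overlapped with G793A controls. Pld4, an endolysosomal nuclease gene of microglia, stood at 8.65, 7.72 and 7.75 CPM in WT controls and 4.87, 4.92, 5.35 and 5.55 CPM in treated G793A mice, with G793A controls at 81.0% of WT control. Limma on the deposited variance-stabilised values called Pld4, and so did DESeq2.

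Among genes at 5 CPM or more, the largest non-overlapping differences above control were Pcp2, Zfp36, Lrrc17, Fam78b and Cep76. Pcp2, a Purkinje cell gene, rested on replicate 2, which had 35.9 CPM where the other 3 treated libraries had 0.269, 0.276 and 0.198 CPM. Cep76, a centrosomal protein gene, averaged 183.5% of control, and 112.2% without that library. Lrrc17 stood at 11.8, 9.42 and 9.39 CPM in WT controls and 14.9, 21.3, 25.8 and 18.5 CPM in treated G793A mice, and G793A controls averaged 188.0% of WT control. Zfp36, an immediate early RNA-decay gene, averaged 261.4% of control, and 213.1% without replicate 2. In counts not scaled to depth, G793A controls had 170, 507, 284 and 123 of Zfp36. Treated G793A libraries had 227, 447, 227 and 321 counts and WT controls 102, 130 and 154. Below control the largest were Mfrp, Ttr, Ecrg4, Stab1 and Pld4. Mfrp averaged 55.6% of control and Ecrg4, a secreted peptide gene abundant in choroid plexus, 57.8%.

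G793A mice on PLX3397, another CSF1R inhibitor, were given 290 mg/kg, so their values are only set alongside. Against the same WT controls their median was −0.35 for homeostatic genes, −0.33 for pan-myeloid genes and −0.71 for border macrophage genes, and the values with PLX5622 were −0.38, −0.27 and −0.53.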

How the data were processed

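Brain RNA of 23 libraries was sequenced from stranded, poly(A)-selected libraries, per the labels' protocols. Tools listed in the submitters' processing notes are kallisto 0.46.1, DESeq2 1.26.0 and FastQC 0.11.9, with build GRCm39. How transcripts were summed to genes is not stated there. The authors deposited expected counts, that is estimated counts for each gene symbol that are not scaled to depth. They cover 22310 named genes, and 45.3% of the values are not whole. A single entry with a blank name was left out, at most 0.0151% of a library. The other deposited table (15577 entries) gives variance-stabilised log2 values and served as an alternative only.

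Rounded counts went into edgeR 4.0.16 (R 4.3.3) with TMM scaling, filterByExpr (minimum count 10, total 15), 1 robust quasi-likelihood model over all 23 libraries with a coefficient for each group, two-sided tests, and a Benjamini-Hochberg threshold of 0.05. Each adjusted p is from this model unless another tool or fit is named. The SE of a log2 fold change is its size over the root of F, and 95% intervals are from the same model. The common biological coefficient of variation was 0.0998. Non-overlap was read from CPM. List scores are means of log2 CPM. Intervals cover the spread between these libraries.

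Named were Csf1r, Csf1 and Il34; the 10 smallest p-values, since under 10 genes passed; the 5 largest non-overlapping differences each way at a mean of 5 CPM over the 7 libraries; the most abundant members of each list; and list members without overlap. Some genes that these rules name are not reported here. Further list members are given as examples chosen after their values were seen. The groups compared, the 29 lists and these rules were chosen with earlier results of these data known. Alternatives were RLE scaling, other filters, a non-robust fit, DESeq2 1.42.0, limma-voom (limma 3.58.1), replicate number as a block, fewer groups in the fit, removal of a trend along transcript length and GC content, the variance-stabilised values, and leaving out libraries. Libraries of a group differed beyond counting noise (chi-square per degree of freedom 5.93 to 31.1), so none was counted as a duplicate. The test was also run on simulated data, and no statement here rests on that run. Positions of promoters are from GRCm38.p6, which was used for no count.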

Additional observations from a re-analysis of the deposited data

Results flagged for a closer look

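Among the 117 named genes, 11 had 1 library of the treated G793A group standing apart from the other 3 by Dixon's criterion. Chance meets this criterion in about 1 of 20 groups, so several of the 11 can be met by chance over 117 genes. In replicate 2, cerebellar Pcp2 was 35.88 CPM (others 0.1984 to 0.2759 CPM), Cbln1 119.5 CPM (others 16.25 to 22.3 CPM) and Cep76 28.65 CPM (others 7.764 to 8.588 CPM). The same library had low Csf1r at 58.83 CPM (others 74.16 to 77.3 CPM) and low Tyrobp, the DAP12 adaptor gene, at 8.442 CPM (others 9.623 to 9.693 CPM). In replicate 3, S100a8 was 8.899 CPM (others 1.407 to 2.399 CPM), P2ry12 32.73 CPM (others 25.67 to 26.7 CPM), Slc1a2 5194 CPM (others 3491 to 3710 CPM), Mfrp 7.174 CPM (others 4.534 to 4.797 CPM) and Egr1 194.8 CPM (others 312.7 to 315.7 CPM). In replicate 4, Pcna was 41.43 CPM (others 44.16 to 44.48 CPM).

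The effect of PLX5622 differed between genotypes by edgeR's interaction test for 130 genes upward and 1 downward. They include 4 of the genes named for the receptor and its ligands, for the smallest p-values or for the largest differences. The effect in G793A exceeded that in WT mice by 2.748 for Csf1r, 2.746 for Pld4, 2.069 for Stab1 and 1.701 for Nfam1, on the log2 scale. In G793A mice the effects were −0.18, −0.33, −0.37 and −0.24, and in WT mice −2.93, −3.07, −2.44 and −1.94.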

How the results depend on the processing

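The count against WT control was 0 in the fit reported. It was 3 with the compared groups alone (Arhgap6, Hunk and Selplg, 1 higher and 2 lower), 8 with DESeq2, 1 with limma-voom and 1 with the deposited variance-stabilised values. Leaving out each library gave 0 to 1. Against G793A control the count was 215 with DESeq2, and leaving out each library gave 0 to 980, the 980 without replicate 2 of the G793A controls. The cause was not tested. Every other alternative run gave 0 for both comparisons: RLE scaling, no filter, a filter at 1 CPM, the non-robust fit, the trend removed, the fit without the WT inhibitor groups, and the fit without the 2 libraries with cerebellar transcripts (1 of them in WT mice on PLX5622), an alternative chosen after seeing the data. With the replicate block the count was 0 against either control, with a smallest adjusted p of 0.336 and 0.152. Same-numbered libraries did not deviate together (r from −0.195 to −0.0193 with WT controls over 3 pairs and −0.0929 to 0.0935 with G793A controls over 4), so the numbers do not pair libraries.

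Of 117 named genes under up to 19 alternatives each, 8 passed the threshold in at least 1, and 26 changed sign in some alternative without passing in either fit. The homeostatic median ran from −0.42 to −0.22 and the pan-myeloid median from −0.33 to −0.12. The border macrophage median ran from −0.57 to −0.10, the latter with the variance-stabilised values. The leukocyte median ran from 0.12 with those values to 4.92 with a filter at 1 CPM, which leaves fewer of its genes. Depth limits the genes with few counts in a group, such as S100a8 with 3 to 6 counts in WT controls. The 95% interval lay within 2-fold of control for 3 of 12 border macrophage, 1 of 10 leukocyte, 1 of 7 choroid plexus and 0 of 5 red blood cell genes, and what sets its width was not tested.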
